A study of Penaeus monodon with 38 samples.

Results

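Serotonin receptors were followed here through eyestalk, ovary and cephalothorax of the black tiger shrimp Penaeus monodon. All probes whose name on the array gave a serotonin or 5-HT receptor were taken, which gave 10 of the 2240 probes and 2 of the 921 target sequences. The first target is the 5-HT1 receptor of P. monodon, with 5 probes. The second is annotated only as serotonin receptor, comes from the related shrimp Metapenaeus ensis, and also has 5 probes. The study used 38 single-colour arrays of adult females to follow ovarian maturation in captive-reared and wild-caught animals. Captive-reared females were sampled before unilateral eyestalk ablation (the removal of 1 eyestalk, which brings on ovarian maturation), after it while still previtellogenic, at a vitellogenic stage and at a stage with elongated cortical rods. Wild-caught females were sampled before ablation, at 2 h and 24 h after it, at a vitellogenic stage, and at stages with round and with elongated cortical rods. The stages up to 24 h, and in captive females the stage after ablation without yolk, are grouped as previtellogenic and the later ones as vitellogenic.

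Captive ovary and captive eyestalk had 4 arrays each, 1 per stage, and wild ovary and wild eyestalk had 12 arrays each, 2 per stage. Wild cephalothorax, the front of the body, had 6 arrays, 1 per stage. Each array carried pooled RNA. The design text gives the pools for ovary, as 3 captive animals or as 4 and 5 of the 9 wild animals at a stage, and gives no animal numbers for the other tissues. The p-values therefore measure the spread between these arrays and not between single animals. Every stage after ablation came from females that had lost 1 eyestalk, and no captive cephalothorax was measured. All RNA is from mixed tissue, in which fewer cells of a type and less RNA per cell cannot be told apart.

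Serotonin, or 5-hydroxytryptamine, is an amine transmitter made from tryptophan. Most of its receptors are G protein coupled receptors of the cell membrane, and those of the 5-HT1 type are known to act through inhibitory G proteins that lower cyclic AMP. In decapod crustaceans serotonin is known for releasing neurohormones from the sinus gland of the eyestalk and for advancing ovarian maturation when injected. The eyestalk is also the source of the hormones of the hyperglycemic hormone family that hold back the ovary, which is why its ablation is used in hatcheries.

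Each probe is a single strand of 34 to 36 bases. The 4 shown are the pair with signal on most arrays, the M. ensis probe that came next, and a 5-HT1 probe that passed a test in captive ovary. Each name ends with the first and last base in its target sequence, and no capitals are used because no part of a probe was singled out.
5-HT1 receptor 1915-1949: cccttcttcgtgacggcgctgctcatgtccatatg
5-HT1 receptor 2160-2195: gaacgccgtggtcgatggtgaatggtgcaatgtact
serotonin receptor 3249-3283: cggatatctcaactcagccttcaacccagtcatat
5-HT1 receptor 1516-1550: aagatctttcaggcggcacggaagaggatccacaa
The probes of the 5-HT1 receptor held 51.4 to 57.1% G and C, against 45.7 to 54.3% in those of the M. ensis receptor. Over the 25 pairs made of 1 probe of each receptor, the longest run of identical bases was 8, so the probes of the 2 receptors share no long stretch.

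Signals are the mean foreground intensity of a spot, in the scanner's arbitrary units. The arrays have no background column, so 24 probes made for 5 vertebrate species served to judge non-specific signal, and a probe was read as above that level on an array where its intensity passed the 90th percentile of those probes. This level was 300.4 to 399.2 on captive ovary arrays, 141 to 257.3 on captive eyestalk, 185.8 to 361.1 on wild ovary, 138.5 to 795.6 on wild eyestalk and 123.2 to 422.7 on wild cephalothorax. The share of all probes above it was 30.9 to 46.4% on captive ovary arrays, 22.4 to 29.9% on captive eyestalk, 34.4 to 48.8% on wild ovary, 24.3 to 39% on wild eyestalk and 43.5 to 50.3% on wild cephalothorax. Array medians ran from 72.3 to 384. The arrays were scanned in 10 sets of up to 4, each of 1 tissue, and the captive arrays of each tissue made a set of their own.

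Of the 10 receptor probes, only 5-HT1 receptor 2160-2195 and 5-HT1 receptor 1915-1949 were above the non-specific level on most arrays, on 37 and on 32 of the 38. Serotonin receptor 3249-3283 passed it on 4 arrays, serotonin receptor 3320-3354 and 5-HT1 receptor 1516-1550 on 2 each, and 5-HT1 receptor 2070-2104 on 1. Serotonin receptor 2974-3007, 3015-3048 and 3837-3871 and 5-HT1 receptor 1713-1747 passed it on none. Among all 2240 probes, 475 (21.2%) passed on no array and 184 (8.21%) on all. The M. ensis receptor was therefore barely measured with P. monodon RNA, and the account of levels rests on 2 probes of the 5-HT1 receptor.

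**Figure D1:**
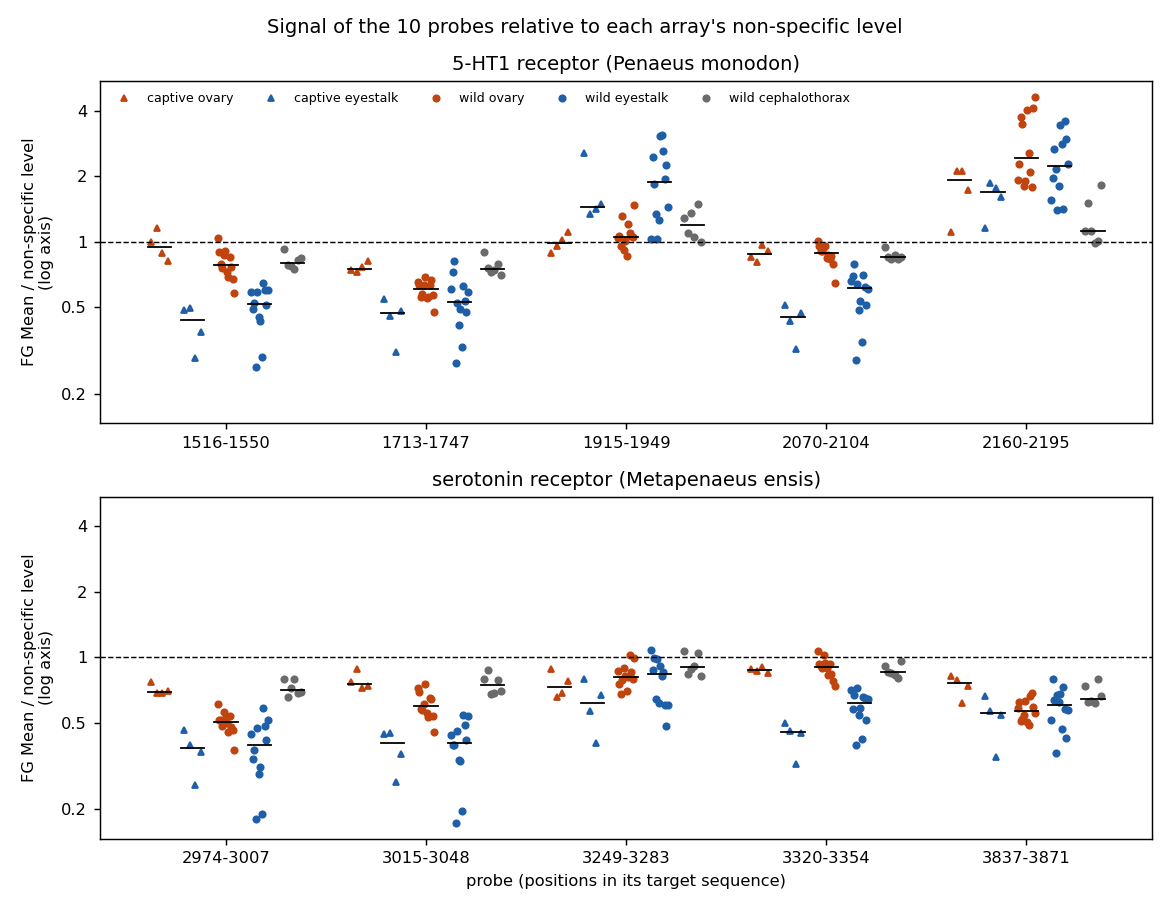
Intensity of each of the 10 receptor probes divided by the non-specific level of its array (log axis, no unit), 1 point per array, by tissue and origin, with the median as a bar. A value over 1 lies above the level. 5-HT1 receptor 2160-2195 and 1915-1949 lie above it on 37 and 32 of 38 arrays, and every other receptor probe on at most 4.

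5-HT1 receptor 1915-1949 gave its high signals in eyestalk. In wild ovary its intensities were 261 and 231 before ablation, 198 and 435 at 2 h, 241 and 229 at 24 h, 384 and 220 at the vitellogenic stage, 180 and 287 with round cortical rods, and 198 and 484 with elongated cortical rods. In wild eyestalk they were 262 and 1554 before ablation, 745 and 2155 at 2 h, 753 and 501 at 24 h, 1066 and 547 at the vitellogenic stage, 143 and 923 with round cortical rods, and 448 and 746 with elongated cortical rods. The 2 tissues overlapped, but 9 of 12 eyestalk arrays were above the highest ovary array. Against each array's own non-specific level the probe stood at 0.858 to 1.47 times in wild ovary (median 1.05, above it on 9 of 12 arrays) and at 1.03 to 3.09 times in wild eyestalk (median 1.89, above it on 12 of 12). In ovary it thus lay close to the level of the vertebrate probes at every stage.

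In wild cephalothorax the same probe read 403 before ablation, 250 at 2 h, 308 at 24 h, 167 at the vitellogenic stage, 422 with round and 373 with elongated cortical rods, which is 0.999 to 1.495 times the level (above it on 5 of 6 arrays). Captive ovary gave 355, 285, 354 and 343 in the order of its 4 stages, and was above the level on 2 of 4 arrays. Captive eyestalk gave 573, 189, 363 and 329 in the same order, above the level on 4 of 4. The raw captive intensities overlapped between the tissues. Divided by the level, all 4 eyestalk arrays (1.34 to 2.54 times) lay above all 4 ovary arrays (0.889 to 1.10 times).

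5-HT1 receptor 2160-2195 was above the level in both tissues at every stage. In wild ovary its intensities were 483 and 1090 before ablation, 423 and 927 at 2 h, 944 and 441 at 24 h, 1011 and 369 at the vitellogenic stage, 351 and 1127 with round cortical rods, and 373 and 1531 with elongated cortical rods. In wild eyestalk they were 398 and 1735, 592 and 1957, 1091 and 272, 1722 and 1016, 193 and 1220, and 638 and 1170 at those 6 stages in the same order. The 2 tissues covered much the same range, and only 3 of 12 eyestalk arrays were above the highest ovary array. The probe stood at 1.78 to 4.64 times the level in wild ovary (median 2.42) and at 1.39 to 3.60 times in wild eyestalk (median 2.22), with all 24 arrays above it.

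In wild cephalothorax 5-HT1 receptor 2160-2195 was lower and read 354, 169, 422, 138, 772 and 349 over the 6 stages, or 0.990 to 1.83 times the level (median 1.12, above it on 5 of 6 arrays). The array with round cortical rods, at 772, stood apart from the others. Captive ovary gave 441, 636, 736 and 534 over its 4 stages, at 1.10 to 2.12 times the level, and captive eyestalk 260, 261, 455 and 356, at 1.15 to 1.85 times. All 8 captive arrays were above the level, and the 2 tissues overlapped.

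**Figure D2:**
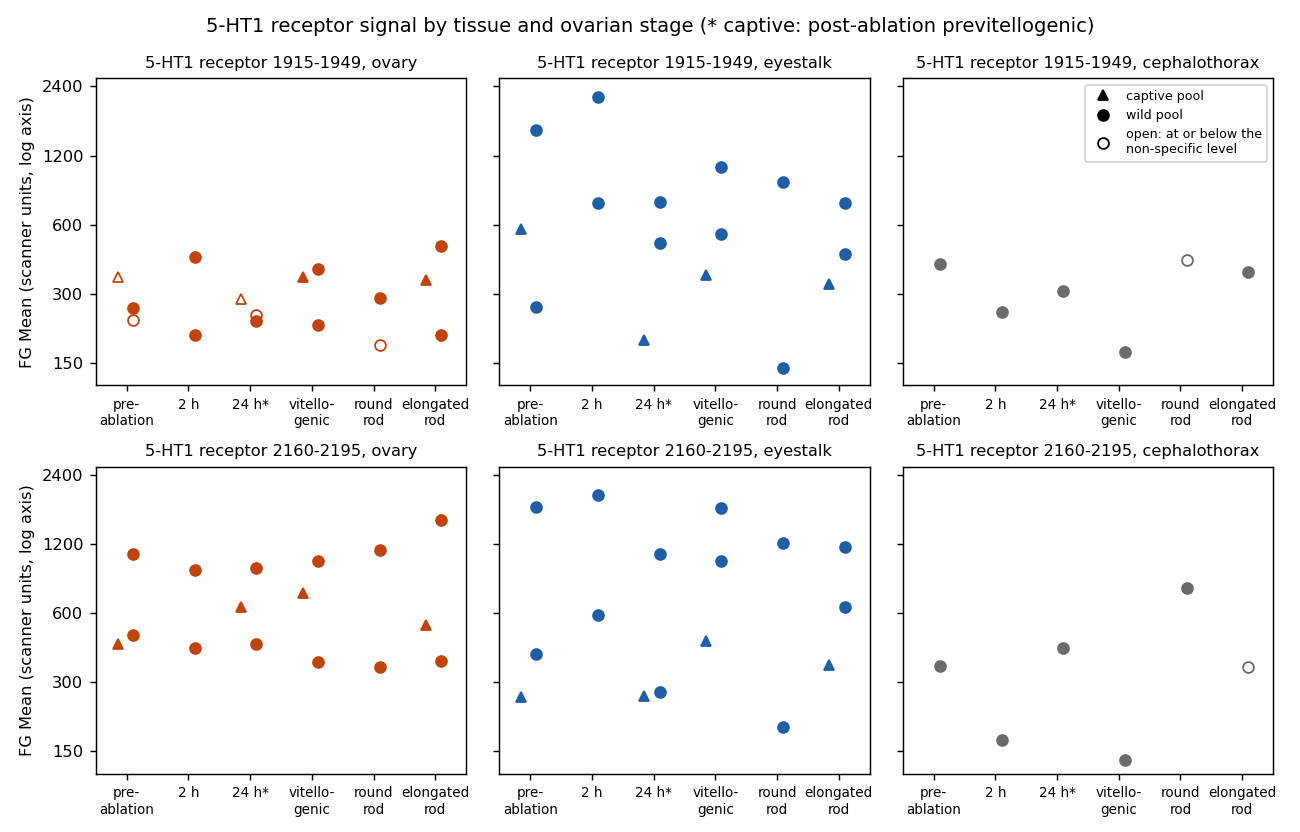
Intensity of 5-HT1 receptor 1915-1949 and 2160-2195 (log axis, arbitrary units) by maturation stage in each tissue and origin, 1 point per array, open where at or below the non-specific level. Replicate arrays of 1 stage differ as widely as the stages do, and the highest point of both probes, 2155 and 1957, belongs to the same stage of wild eyestalk, 2 h after ablation.

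For tests the intensities were background-corrected, turned to log2 values and normalised by quantiles. Calls are those of limma at an adjusted p under 0.05, with the Benjamini-Hochberg adjustment made over the 2240 probes. On this scale over the 38 arrays, 5-HT1 receptor 1915-1949 averaged 9.95 ± 0.96 in captive eyestalk (SD, n = 4), 9.39 ± 0.94 in wild eyestalk (n = 12), 7.72 ± 0.25 in wild cephalothorax (n = 6), 7.64 ± 0.28 in wild ovary (n = 12) and 7.44 ± 0.14 in captive ovary (n = 4). The step in this order lies between eyestalk and the other tissues, and neighbours on either side of it differ by no more than the larger of their SDs. For 5-HT1 receptor 2160-2195 the order was captive eyestalk at 9.81 ± 0.69, wild eyestalk at 9.80 ± 0.73, wild ovary at 8.97 ± 0.58, captive ovary at 8.73 ± 0.35 and wild cephalothorax at 7.76 ± 0.53. Here ovary held a place between eyestalk and cephalothorax, and captive and wild arrays of 1 tissue differed by less than their SDs.

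Wild ovary had lower 5-HT1 receptor 1915-1949 than wild eyestalk, with a log2 difference of -1.83 ± 0.26 (SE), at means of 7.72 ± 0.29 in ovary and 9.55 ± 0.97 in eyestalk (SD, n = 12 each, limma adjusted p = 3.92e-07). Of the 10 receptor probes 6 were called and all 6 were lower in ovary, but with arrays scaled to the non-specific level, a setting chosen after the data were seen, 5 were called higher and 1 lower. Over all probes 65.6% were called in this comparison, with 641 higher and 828 lower in ovary, and 37% were called lower. 5-HT1 receptor 1915-1949 was at or below the non-specific level on 3 of the 12 ovary arrays. The median difference was -0.39 over the receptor probes and -0.06 over all probes. Of the other 5 calls, serotonin receptor 3837-3871 and 2974-3007 and 5-HT1 receptor 1713-1747 were below the non-specific level on every array, and serotonin receptor 3249-3283 was above it on 1 array of each tissue, so no fold is given for them.

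5-HT1 receptor 2160-2195 was also called lower in wild ovary than in wild eyestalk, at -0.86 ± 0.26 (limma adjusted p = 0.00491), but that call depended on how the arrays were scaled. With each array scaled to its median the difference was -0.32 (adjusted p = 0.278). With each array scaled to its non-specific level it was 0.33, higher in ovary (adjusted p = 0.154). That scaling moved the median of all probes to 0.69 and the split to 1491 higher and 344 lower in ovary. 5-HT1 receptor 1915-1949 kept its direction and its call under both, at -1.52 (adjusted p = 5.68e-08) and -0.87 (adjusted p = 0.000112), and was the only receptor probe still called lower under the second. The 5 called higher there were serotonin receptor 2974-3007, 3015-3048 and 3320-3354 and 5-HT1 receptor 1516-1550 and 2070-2104, each above the non-specific level on at most 2 of the 38 arrays. Both probes kept their calls with scan as a random block.

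The captive arrays repeat this comparison in other animals. Captive ovary had lower 5-HT1 receptor 1915-1949 than captive eyestalk, at -2.10 ± 0.38, with means of 7.15 ± 0.11 in ovary and 9.25 ± 0.86 in eyestalk (SD, n = 4 each, limma adjusted p = 0.00274), and the normalised groups did not overlap. The ovary values include 2 arrays at or below the non-specific level, so the size of this difference is that of normalised signals and not a measured fold. The call held with arrays scaled to the median (-1.69, adjusted p = 0.00123) and to the level (-0.83, adjusted p = 0.0229). In all 4 receptor probes were called, all lower in ovary, where 36.8% of all probes were called and 21.7% called lower. With arrays scaled to the level 6 were called higher and 1, 1915-1949, lower. 5-HT1 receptor 2160-2195 was 1 of the 4 called with quantile normalisation, at -0.91 ± 0.30 (adjusted p = 0.0458). Its difference was -0.51 (adjusted p = 0.202) with arrays scaled to the median and 0.35 (adjusted p = 0.331) with arrays scaled to the level, which moved the median of all probes to 0.76 and the split of calls from 337 higher and 487 lower to 1251 higher and 144 lower in ovary. The remaining calls with quantile normalisation, serotonin receptor 3249-3283 and 3837-3871, were below the non-specific level on all 8 arrays. Each captive tissue was scanned in a set of its own, so tissue and scan cannot be told apart in these arrays.

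**Figure D3:**
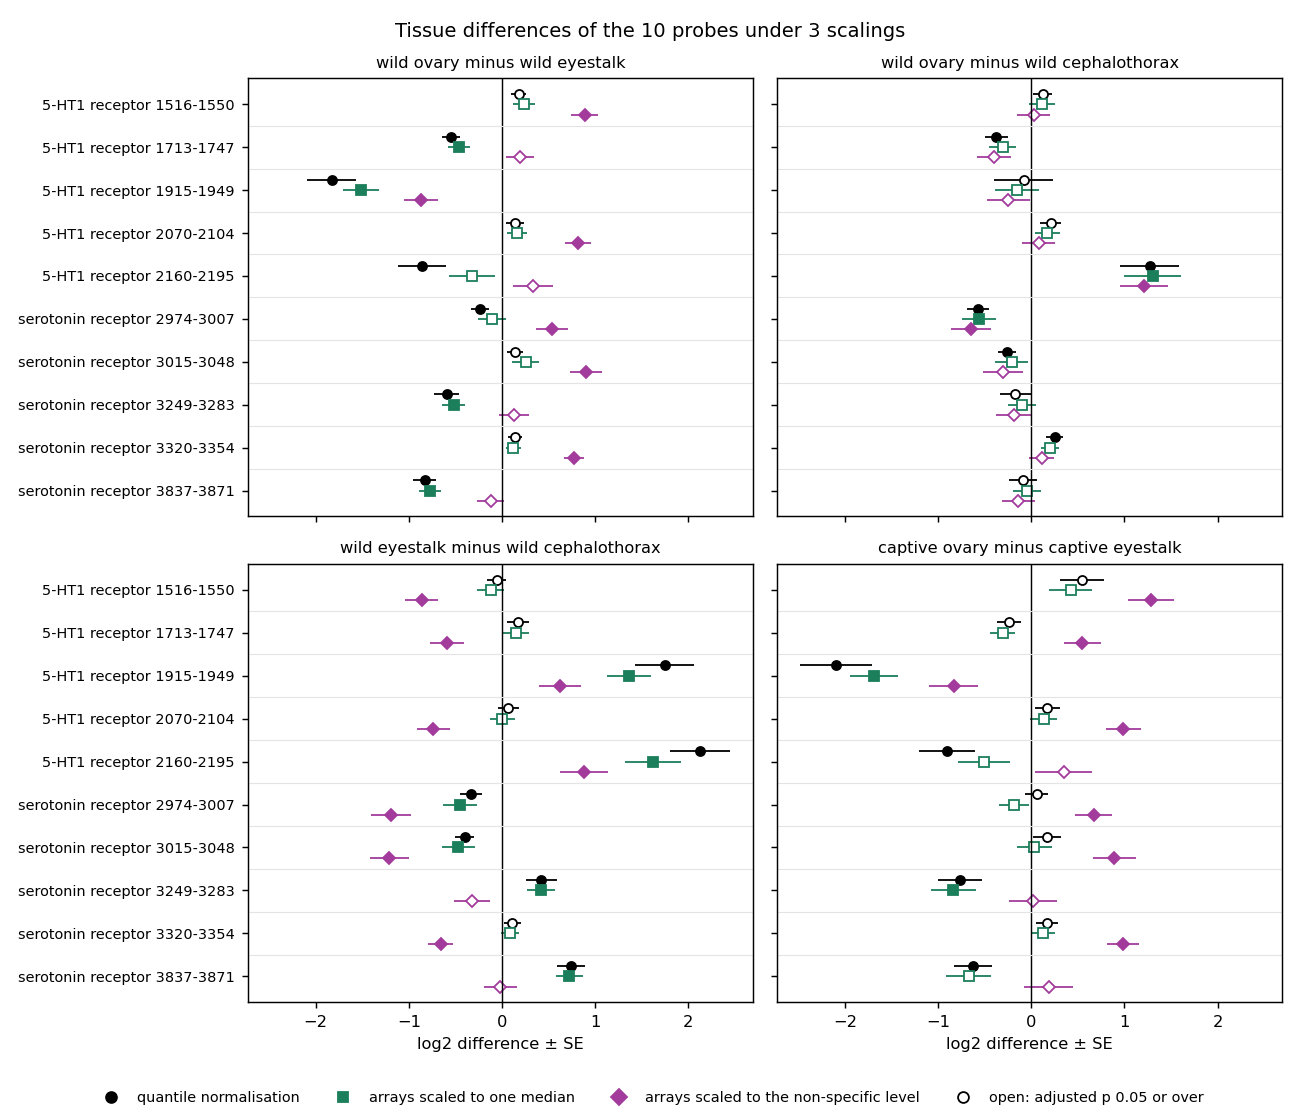
Log2 difference between tissues of each of the 10 receptor probes with its standard error, in 4 panels (ovary minus eyestalk in wild and captive animals, and each wild tissue minus cephalothorax) and under 3 scalings, with open points at an adjusted p of 0.05 or over. With quantile normalisation 5-HT1 receptor 1915-1949 lies at -1.83 and -2.10 for ovary minus eyestalk, and 5-HT1 receptor 2160-2195 at 2.13 for eyestalk minus cephalothorax and 1.27 for ovary minus cephalothorax.

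Against wild cephalothorax the 2 probes of the 5-HT1 receptor parted. Wild ovary had higher 5-HT1 receptor 2160-2195, by 1.27 ± 0.32, at 9.12 ± 0.61 in ovary (n = 12) and 7.85 ± 0.55 in cephalothorax (n = 6, limma adjusted p = 0.00115), and the call held with arrays scaled to the median (1.30, adjusted p = 0.000564) and to the level (1.21, adjusted p = 0.000251). In cephalothorax 2160-2195 passed the non-specific level on 5 of 6 arrays, so the size of its difference is that of normalised signals and not a measured fold. 5-HT1 receptor 1915-1949 differed by -0.08 ± 0.32 (adjusted p = 0.837). In all 2 receptor probes were called higher and 3 lower in ovary, where 56.2% of all probes were called, 726 higher and 533 lower. The other probe called higher, serotonin receptor 3320-3354, passed the non-specific level on 2 of 12 ovary arrays and on no cephalothorax array, and lost its call under both other scalings. The 3 lower ones, serotonin receptor 2974-3007 and 3015-3048 and 5-HT1 receptor 1713-1747, were below the level on all arrays.

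Wild eyestalk was higher than wild cephalothorax in both measured probes. 5-HT1 receptor 2160-2195 was higher by 2.13 ± 0.32, at 9.98 ± 0.75 in eyestalk (n = 12) and 7.85 ± 0.55 in cephalothorax (n = 6, limma adjusted p = 2.35e-06), and 5-HT1 receptor 1915-1949 by 1.75 ± 0.32, at 9.55 ± 0.97 in eyestalk and 7.81 ± 0.26 in cephalothorax (adjusted p = 4.13e-05). Each probe passed the non-specific level on 5 of the 6 cephalothorax arrays. The sizes of these differences are therefore those of normalised signals and not measured folds. Both calls held with arrays scaled to the median (1.62 and 1.36) and to the level (0.88 and 0.62, adjusted p = 0.00413 and 0.0164). In all 4 receptor probes were called higher and 2 lower in eyestalk, where 54.3% of all probes were called and 33.1% called higher. Scaling to the level moved the median of all probes to -0.69 and the split of calls from 741 higher and 475 lower to 120 higher and 1435 lower in eyestalk. With it, 2160-2195 and 1915-1949 were the 2 receptor probes called higher, and 6 others were called lower.

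Sums over lists of tissue markers also differed between the tissues, though not always in step with the receptor probes. The summed normalised level of the 77 eye and sinus gland probes was 9890 to 12600 in wild ovary, 21400 to 78300 in wild eyestalk and 9860 to 12300 in wild cephalothorax. In captive animals it was 10600 to 20000 in ovary and 22000 to 72000 in eyestalk. The sum of the 17 ovary marker probes was 111000 to 156000 in wild ovary, 2610 to 5080 in wild eyestalk and 27100 to 87700 in wild cephalothorax, so the cephalothorax arrays carried much signal of the ovary list. For the 13 muscle probes the sum was 9120 to 21300 in wild ovary, 17800 to 78200 in wild eyestalk and 82000 to 127000 in wild cephalothorax. The part of tissue makeup in the receptor differences was not tested.

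No receptor probe was called between maturation phases in wild animals. In wild ovary, vitellogenic against previtellogenic, 5-HT1 receptor 1915-1949 differed by 0.00 ± 0.15 and 5-HT1 receptor 2160-2195 by -0.39 ± 0.38, and limma called 0 of 10 receptor probes and 0% of all probes, with 59 probes at an unadjusted p under 0.05. In wild eyestalk the differences were -0.32 ± 0.41 and 0.45 ± 0.31, and limma called 0 of 10, against 0.625% of all probes and 171 probes at an unadjusted p under 0.05. The receptor probe with the smallest p in wild eyestalk was serotonin receptor 3249-3283 (adjusted p = 0.403), above the non-specific level on 0 of 6 vitellogenic and 1 of 6 previtellogenic arrays. Within the 3 scans of wild eyestalk that held both phases, 5-HT1 receptor 1915-1949 differed by -0.08, -0.83 and -1.37, and within the 3 of wild ovary by 0.16, -0.10 and 0.16. For 5-HT1 receptor 2160-2195 those values were 0.37, -0.27 and 0.72 in eyestalk and -0.47, -0.45 and 0.49 in ovary, with no single direction in either tissue. In wild cephalothorax limma called 0 of 10, where 11.6% of all probes were called, 123 higher and 137 lower in the vitellogenic phase (55 higher and 113 lower with arrays scaled to the median).

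In captive ovary 1 receptor probe was called between phases, where 9.46% of all probes were called, 62 higher and 150 lower in the vitellogenic phase. It was 5-HT1 receptor 1516-1550, lower in the vitellogenic arrays (limma adjusted p = 0.0108). It passed the non-specific level on neither vitellogenic array and on 1 of 2 previtellogenic arrays, where it read 346 (1.15 times the level), against 398 (0.997 times) on the other. No fold is given for a signal so close to that level, and the call was lost with arrays scaled to the median, where the split over all probes was 58 higher and 15 lower, or to the level, with 45 higher and 1 lower. It was also lost without the array with elongated cortical rods. In captive eyestalk limma called 0 of 10 receptor probes and 0% of all probes, with 191 probes at an unadjusted p under 0.05. There 5-HT1 receptor 1915-1949 averaged 9.33 ± 0.54 (SD) on the 2 vitellogenic arrays and 10.57 ± 0.97 on the 2 previtellogenic arrays. These means are on the scale normalised over 38 arrays, and their gap was larger than either SD. In the fit over 16 eyestalk arrays the probe was not called (limma adjusted p = 0.635), with 2 captive arrays a phase.

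The difference between captive and wild animals in the phase effect was tested directly as an interaction. No receptor probe was called by limma in ovary, where 2.14% of all probes were called (14 higher and 34 lower, but 9 higher and 0 lower with arrays scaled to the level) and 437 had an unadjusted p under 0.05, or in eyestalk, where 0.0446% were called and 142 had an unadjusted p under 0.05.

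Captive against wild previtellogenic ovary gave 4 receptor probes called, all higher in captive, where 22.5% of all probes were called and 13.5% called higher. 5-HT1 receptor 1516-1550 was the only 1 of them above the non-specific level on any of these arrays, on 1 of 2 captive arrays and 1 of 6 wild arrays (limma adjusted p = 0.00282). The others, serotonin receptor 3837-3871, 2974-3007 and 3015-3048, were below it throughout. Calls over all probes were 302 higher and 202 lower in captive, and 116 higher and 135 lower with arrays scaled to the median. Limma called 0 of 10 in captive against wild vitellogenic ovary (0.0446% of all probes, 346 at an unadjusted p under 0.05). It also called 0 of 10 in previtellogenic eyestalk (0.714%, 10 higher and 6 lower, but 0 higher and 5 lower with arrays scaled to the median, and 393 at an unadjusted p under 0.05) and in vitellogenic eyestalk (0%, 199 at an unadjusted p under 0.05). In previtellogenic eyestalk 5-HT1 receptor 1915-1949 differed by 0.79 ± 0.57 (adjusted p = 0.468) and 5-HT1 receptor 2160-2195 by 0.35 ± 0.43 (adjusted p = 0.683). Captive arrays were scanned apart from wild ones, so origin and scan cannot be told apart.

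**Figure D4:**
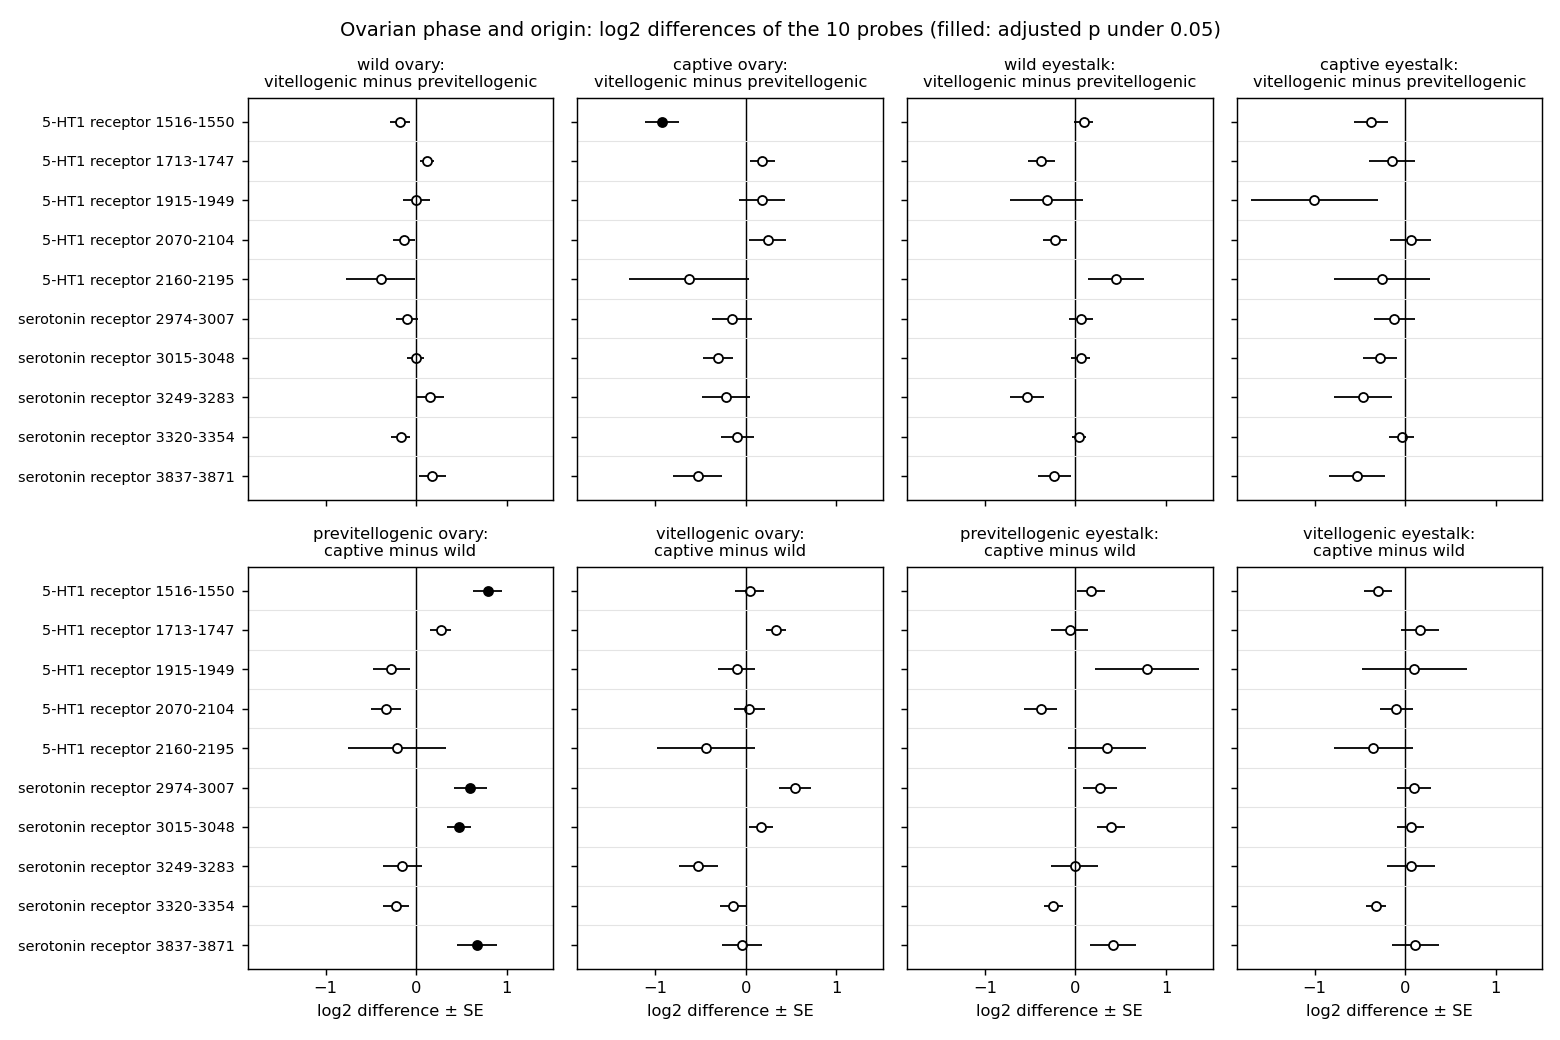
Log2 difference with its standard error of the 10 receptor probes for vitellogenic minus previtellogenic phase and for captive minus wild animals, in ovary and eyestalk. The bars of 5-HT1 receptor 1915-1949 and 2160-2195 are wide in eyestalk, as for 0.79 ± 0.57 in previtellogenic eyestalk, and none of their differences was called.

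Ablation itself was read at 2 h and 24 h against the preablation arrays, 2 arrays a stage. Limma called 0 of 10 receptor probes and 0% of all probes in both tissues and at both times. The probes with an unadjusted p under 0.05 numbered 43 at 2 h and 4 at 24 h in ovary, and 9 at 2 h and 69 at 24 h in eyestalk. 5-HT1 receptor 1915-1949 differed by 0.50 ± 0.27 at 2 h and 0.32 ± 0.27 at 24 h in ovary, and by 0.68 ± 0.75 and 1.40 ± 0.75 in eyestalk (adjusted p = 0.998, 0.999, 0.999 and 0.988). In eyestalk at 24 h all 10 receptor probes lay above 0, with a median of 0.37 against 0.02 over all probes, and none was called. Apart from the pair of 5-HT1 receptor probes with signal on most arrays, no receptor probe passed the non-specific level on either array at 24 h. The probes were read on the same arrays and the share of all probes above 0 was not counted. No conclusion is therefore drawn from their common direction. A test for any difference over the 6 wild stages called 0 receptor probes and 0% of all probes in ovary and in eyestalk, with 22 and 38 probes at an unadjusted p under 0.05.

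The genes around the receptor were described through lists of array names. The list for serotonin synthesis and transport holds 6 probes, 3 of a phenylalanine/tryptophan hydroxylase (enzymes of that family include the one that starts serotonin synthesis) and 3 of a fruit fly ornithine decarboxylase, a polyamine enzyme that entered by its name pattern. In wild ovary against wild eyestalk 2 were called higher and 3 lower. Phenylalanine/tryptophan hydroxylase probe 223-257 was lower in ovary at -3.21 ± 0.27 (limma adjusted p = 1.01e-11), and still so at -2.60 with arrays scaled to the median and -1.95 with arrays scaled to the level. It was higher in wild eyestalk than in wild cephalothorax by 1.81 ± 0.34 (adjusted p = 4.84e-05), but that call was lost with arrays scaled to the level (0.35, adjusted p = 0.213). The other 2 hydroxylase probes were not called in that comparison (-0.26 and 0.16, adjusted p = 0.499 and 0.503) and were called lower in eyestalk with arrays scaled to the level (-1.09 and -0.58). Probe 223-257 was also lower in captive ovary than in captive eyestalk (-2.65 ± 0.24, adjusted p = 4.55e-05, and -1.21, adjusted p = 0.00873, with arrays scaled to the level), above the non-specific level on 2 of 4 ovary arrays. The other 2 hydroxylase probes were above that level on no captive array. Of these, 35-69 was called lower in captive ovary (adjusted p = 0.00262) and 113-147 was not called (adjusted p = 0.0838). With arrays scaled to the level neither was called (0.04 and 0.43, adjusted p = 0.846 and 0.0687).

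The receptor signalling list of 15 probes had 0 called higher and 10 lower in wild ovary than in wild eyestalk. It includes arrestins, which bind activated G protein coupled receptors including those of the eye. Its share of calls in either direction was close to the 65.6% over all probes. Its share called lower was above the 37% of all probes called lower. Arrestin probe 561-595 was called lower (limma adjusted p = 1.18e-10). It passed the non-specific level on 0 of 12 ovary arrays and 11 of 12 eyestalk arrays, so no fold is given. Among 88 probes of eyestalk neurohormones 7 were higher and 50 lower in wild ovary, again close to 65.6% in both directions and above 37% for lower calls. PmSGP-II, of the hyperglycemic hormone family, was lower at -3.38 ± 0.26 (limma adjusted p = 9.32e-13). PmSGP-III was also called lower (adjusted p = 1.05e-10), and like arrestin it passed the level on 0 of 12 ovary arrays and 11 of 12 eyestalk arrays. With arrays scaled to the level the signalling list had 7 higher and 7 lower and the neurohormone list 45 higher and 24 lower. Over all probes that scaling gave 1491 higher and 344 lower and a median of 0.69. The median was -0.58 for the signalling list and 0.33 for the neurohormone list. The counts of both lists thus moved with all probes, and both medians stayed below that of all probes. The named probes of PmSGP-II (-2.16), PmSGP-III and arrestin stayed lower in ovary. The lists overlap, since 9 signalling probes and 68 neurohormone probes are also eye and sinus gland markers. For the marker lists the counts in wild ovary against wild eyestalk were 15 higher and 0 lower of 17 for ovary, 5 higher and 47 lower of 77 for eye and sinus gland, 2 higher and 10 lower of 13 for muscle, 0 higher and 2 lower of 3 for haemocytes, and 7 higher and 6 lower of 20 for digestive gland. Scaled to the level they were 17 and 0, 32 and 27, 3 and 6, 1 and 1, and 16 and 0 in the same order. The eye and sinus gland list then had more calls higher than lower, but its median of -0.02 lay below the 0.69 of all probes.

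In captive ovary against captive eyestalk the counts were 0 higher and 2 lower for synthesis and transport and 0 higher and 5 lower for signalling. For neurohormones they were 1 higher and 22 lower. Each is a smaller share than the 36.8% of all probes called in either direction. The share called lower was larger in each list than the 21.7% over all probes. With arrays scaled to the level they were 2 higher and 1 lower, 4 higher and 3 lower, and 42 higher and 6 lower. Over all probes that scaling gave 1251 higher and 144 lower. In wild eyestalk against wild cephalothorax they were 1 higher and 1 lower, 10 higher and 0 lower, and 65 higher and 0 lower. There 54.3% of all probes were called and 33.1% called higher. Scaling to the level gave all 3 lists more calls lower than higher, at 0 higher and 5 lower, 2 higher and 6 lower, and 18 higher and 39 lower. Over all probes it gave 120 higher and 1435 lower.

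Correlations between probes of 1 receptor differed with the arrays taken. Over the 38 arrays the median correlation between probes was r = 0.071 for the 5-HT1 receptor and r = -0.164 for the M. ensis receptor (10 pairs each), where the median over 850 targets with several probes was 0.504. Within the 12 wild ovary arrays the median was 0.344 for the 5-HT1 receptor and -0.125 for the M. ensis receptor, where that over targets was 0.206. Within the 12 wild eyestalk arrays it was 0.471 for the 5-HT1 receptor and 0.025 for the M. ensis receptor, where that over targets was 0.199. The pair above the non-specific level, 5-HT1 receptor 1915-1949 and 2160-2195, correlated at r = 0.655 over the 38 arrays. This was not particular to that pair. 5-HT1 receptor 1915-1949 correlated at r = 0.649 with 1713-1747, which passed the level on none of the 38 arrays. Over the 25 pairs made of 1 probe of each receptor, r ran from -0.469 to 0.792 (median 0.132). The arrays share their tissues and their scaling, so these values describe the arrays.

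Among 67 other named targets, the one whose mean over its probes was most like that of the 5-HT1 receptor over 38 arrays was mandibular organ inhibiting hormone of the crab Libinia emarginata (r = 0.873). NADH:ubiquinone oxidoreductase (r = 0.865) and a molt-inhibiting hormone-like neuropeptide of Litopenaeus vannamei (r = 0.839) followed. For the M. ensis receptor the nearest were the same crab hormone (r = 0.825), the hyperglycemic hormone homolog PmSGP-IV (r = 0.784) and pigment-dispersing hormone 3 (r = 0.781). Within the 12 wild eyestalk arrays the nearest to the 5-HT1 receptor was cathepsin C (r = 0.853) and to the M. ensis receptor PmSGP-IV (r = 0.720). Within the 12 wild ovary arrays the nearest to the 5-HT1 receptor were pigment-dispersing hormone 2 (r = 0.947) and 2 fish genes, SF-1 (r = 0.932) and a gonadotropin subunit (r = 0.912). Those 2 are among the vertebrate probes that set the non-specific level. In ovary the mean of the 5-HT1 probes therefore ran with signal of probes that have no shrimp target named. Each receptor mean also includes probes that seldom or never passed the non-specific level. These are all the probes of the M. ensis receptor and most of those of the 5-HT1 receptor. How far the likenesses named here rest on signal near that level was not tested.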

How the data were processed

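RNA was hybridised alone, labelled with Cy5, on 38 arrays of 2240 probes with 1 spot each. The deposited scanner output holds a mean foreground intensity per spot, unlogged and with no background column, per the file headers. The image software is not given in the sources used here. A value table of the authors held that intensity for 2239 probes, with 85082 of 85082 values equal within 0.01 and column medians of 72.3 to 384. The intensity was corrected by normexp (offset 50), turned to log2 values and normalised by quantiles within each fit. Differences were tested with lmFit and eBayes of limma 3.58.1 in R 4.3.3 over all 2240 probes, with Benjamini-Hochberg adjustment, and called at an adjusted p under 0.05. Wild tissues were compared over 30 arrays and captive tissues over 8. Phase and origin were fitted per tissue over 16 arrays (wild cephalothorax over 6), and stages over the 12 wild arrays of a tissue. The number of arrays limits the precision. The fit was also run on simulated data with known changes. Those data held no effects of scan or replicate number, and no result given here rests on that run.

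Names come from the files and can be old. They cover 244 probes of 68 targets, and no genome position was assigned. All 10 receptor probes are named, with up to 6 other probes a tissue comparison, as the called probe of smallest p of each listed target. Lists cover serotonin synthesis and transport, receptor signalling, eyestalk neurohormones, and markers of ovary, eye and sinus gland, muscle, haemocytes and digestive gland. The members and lists were chosen with earlier results of these data known. Alternatives changed the background correction, the offset, the scaling, the filter on dim probes, the arrays in the fit, the scan and replicate blocks and the test. Same-numbered wild arrays were not taken as paired, since not every pair correlated over 0.1. Their deviations from the group means correlated at r = 0.093 to 0.363 between ovary and eyestalk of a stage (over 0.1 in 5 of 6 pairs). Between stages of ovary the values were -0.328 to 0.655 (median 0.172, over 0.1 in 10 of 15 pairs). Between stages of eyestalk they were -0.139 to 0.58 (median 0.369, over 0.1 in 12 of 15 pairs). Arrays of 1 number may therefore not be fully independent, above all in eyestalk. The most alike arrays correlated at r = 0.994, and all were kept as separate.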

Additional observations from a re-analysis of the deposited data

Results flagged for a closer look

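Among 70 groups of 4 to 10 arrays tested for 1 array far from the rest, 3 had one, and chance flags about 1 in 20 groups. 5-HT1 receptor 2160-2195 in wild cephalothorax read 8.77 on the log2 scale with round cortical rods, against 7.40 to 7.90 on the other 5 arrays, and the gap was 0.632 of the range. Its intensity was 772, against 138 to 422. Serotonin receptor 3837-3871 in wild cephalothorax read 6.86 at 2 h, against 6.26 to 6.42 on the others, a gap of 0.741 of the range. Its intensity there, 132, lay within the 77.8 to 279 of the others, so it stood apart on the normalised scale alone. Serotonin receptor 3015-3048 in previtellogenic wild eyestalk read 6.48 on the second array at 24 h, against 6.23 to 6.31 on the others, a gap of 0.677 of the range. Its intensity there, 104, was below the 113 to 169 of the others, so it was high after normalisation alone. These 2 probes of the M. ensis receptor were below the non-specific level on those arrays.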

How the results depend on the processing

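Over 21 comparisons, 486 of 518 alternative counts of called receptor probes stayed within 1.5 times of the count given above. Most of these comparisons had a count of 0 that stayed 0, and the count ignores direction. With scaling to the level, wild ovary against eyestalk kept 6 calls but went from 0 higher and 6 lower to 5 higher and 1 lower. Wild eyestalk against cephalothorax, also within 1.5 times, went from 4 higher and 2 lower to 2 higher and 6 lower. With arrays scaled to the median the count was 2 for captive ovary against captive eyestalk (4 above), 0 for captive ovary phases (1 above), 2 for captive against wild previtellogenic ovary (4 above) and 2 for wild ovary against wild cephalothorax (5 above). With arrays scaled to the non-specific level, chosen after seeing the data, those were 7 (6 higher and 1 lower), 0, 1 and 2. With only probes above that level they were 2 of 2 tested, 0, 1 of 3 and 1, and both other wild tissue comparisons had 2 of 2. The methods' t-test gave 1, 0 and 1 for the first 3 and 0 wherever it was run and limma gave 0. Captive arrays alone gave 0 for captive ovary phases, stages sampled in both origins gave 1 for previtellogenic ovary, and scan as a random block gave 3 for wild ovary against cephalothorax. Of 839 alternative differences of single probes, 748 kept direction and call, 82 kept direction alone and 9 reversed, all 9 with scaling to the level: for wild ovary minus eyestalk, serotonin receptor 3249-3283 (0.13) and 2974-3007 (0.54, adjusted p = 0.00533) and 5-HT1 receptor 2160-2195 (0.33) and 1713-1747 (0.19); for captive ovary minus eyestalk, 3249-3283 (0.020), 3837-3871 (0.19) and 2160-2195 (0.35); and for wild eyestalk minus cephalothorax, 3249-3283 (-0.32) and 3837-3871 (-0.018). That scaling subtracts 1 value per array, and the median of all probes moved with it. Leaving out 1 array at a time gave 5 to 7 calls for wild ovary against eyestalk, 3 to 5 for ovary against cephalothorax (3 without the cephalothorax array at 2 h), 5 to 6 for eyestalk against cephalothorax, 1 to 3 for captive ovary against eyestalk, 0 to 1 for captive ovary phases, 0 to 1 for the ovary interaction (1 without the first wild array at 2 h or the captive previtellogenic array after ablation), 2 to 4 for previtellogenic ovary (2 without either captive array) and 0 elsewhere. The captive ovary minus eyestalk call of 2160-2195 was lost without any 1 of 5 of the 8 arrays (adjusted p = 0.0779 to 0.117). Replicate number as a block gave 6 calls for wild ovary against eyestalk and 0 for phases and stages. It was not run with cephalothorax, which has 1 array a stage. Over all probes, captive ovary phases had 212 calls, 73 with arrays scaled to the median, 46 to the level, 27 with dim probes left out and 0 by the t-test or captive arrays alone. Previtellogenic ovary had 504, and 251, 172, 160 and 174 by the t-test. The ovary interaction had 48, and 0, 9, 0 and 253 with stages sampled in both origins. Phases in cephalothorax had 260, and 168 with arrays scaled to the median (55 higher and 113 lower) and 18 by the t-test. Previtellogenic eyestalk had 16, and 1 to 56 over the settings.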
